A study of Mus musculus with 9 samples.

Results

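The aminoacyl-tRNA synthetases and the scaffold proteins that hold several of them together were followed in 3T3-L1 cells, a mouse fibroblast line that can be turned into adipocytes in culture. Members were protein-coding genes whose symbol is a single letter followed by ars, with or without 1, 2 or l2 at the end, plus Eprs, Farsa, Farsb, Aimp1, Aimp2 and Eef1e1. The rule found 41 genes of the 54532 in the tables. They were split into 18 cytosolic enzymes, 2 enzymes that serve both compartments (Kars and Gars), 3 scaffold genes (Aimp1, Aimp2 and Eef1e1) and 18 genes of the mitochondrial class, which held every other name ending in 2. Tarsl2 fell into the mitochondrial class by its name, although it is known as a threonyl enzyme outside mitochondria, and its values are therefore given on their own.

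RNA with poly A tails was sequenced from 9 libraries, 3 in each of 3 groups. The Undifferentiated cells had been held confluent for 3 days without the inducing agents. The Differentiated cells were then given a medium with lysine and 4 inducing agents, namely insulin (10 μg/mL), rosiglitazone (1 μM), 3-isobutyl-1-methylxanthine (0.5 mM) and dexamethasone (1 μM), and the Lysfree cells had the same agents in medium to which no lysine was added. By the study's methods, the confluent cells were kept before induction in DMEM with a serum given as BCS. The medium with the inducing agents held fetal bovine serum. Its base was a DMEM lacking arginine and lysine, with arginine added back, and lysine only for the Differentiated cells. The changes of serum and base medium and the inducing agents thus cannot be told apart. All groups came from a single cell line, and nothing in the labels says that the libraries of a group were separate cultures. The spread between libraries behind the p-values may thus be technical, and it was not in every test each gene's own, as shown with the processing.

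A synthetase joins an amino acid to its matching tRNA, and the charged tRNA is then carried to the ribosome by an elongation factor. Cells keep one set of these enzymes for the cytosol and another, also encoded in the nucleus, for the ribosomes inside mitochondria. When an amino acid runs short, uncharged tRNA activates the kinase GCN2, which leads to translation of the transcription factor ATF4, and many cytosolic synthetase genes are known ATF4 targets. Mitochondria multiply as fat cells form, and their translation supplies subunits of the respiratory chain.

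The adipocyte markers followed the labels of the Undifferentiated and Differentiated cells but were low in the Lysfree cells, whose labels also call them differentiated. Levels are given as the deposited FPKM, fragments per kilobase of gene with a scaling of each library. The summed FPKM of 6 adipocyte genes was 153 to 230 in Undifferentiated, 6048 to 6356 in Differentiated and 72.2 to 78.5 in Lysfree libraries. The 6 fibroblast genes summed to 3772 to 4120, 991 to 996 and 1461 to 1523. In Lysfree vs. Undifferentiated cells 5 of the 6 adipocyte genes and 4 of the 6 fibroblast genes were lower at an adjusted p under 0.05 in edgeR's quasi-likelihood test, so the Lysfree libraries were at the marker level of neither of the other groups. Fewer cells of a type and less RNA per cell cannot be told apart in such bulk RNA. Of the macrophage, endothelial, epithelial and skeletal muscle genes only Cd68 exceeded a mean of 1 FPKM in any group, and the summed levels of these lists lay between 0 and 5.01 FPKM. Total counts were 15880144 to 21806693 per library. Lysfree 1 stood apart: its counts differed from those of Lysfree 2 and 3 by a chi-square of 43.3 and 44.4 per degree of freedom, against 2.76 between Lysfree 2 and 3 and at most 12.3 within the other groups. Among the members, 8 of 41 were more than 1.2-fold away from the mean of the other Lysfree libraries and Lars2 alone was more than 2-fold away, against 6837 and 595 of 13617 expressed genes.

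The synthetase genes took 0.496% to 0.501% of all counts in the Undifferentiated libraries, 0.649% to 0.678% in the Differentiated libraries and 0.820% to 0.847% in the Lysfree libraries. The 3 ranges did not overlap. The 18 cytosolic genes summed to 637 ± 0.974 FPKM (SD, n = 3) in Undifferentiated, 908 ± 2.66 in Differentiated and 1234 ± 34.4 in Lysfree cells. Nars alone, at 109, 143 and 328 FPKM on average, made up much of the higher Lysfree sum. In Lysfree vs. Differentiated cells 10 of the 18 were higher and 4 lower at an adjusted p under 0.05 in edgeR's test. The mitochondrial class followed another order. Without Lars2, which is described on its own, it summed to 79.1 ± 0.465, 137 ± 1.79 and 112 ± 2.00 FPKM. Kars and Gars together also peaked in Differentiated cells, at 245 ± 3.91 FPKM against 119 ± 4.25 in Undifferentiated and 194 ± 3.37 in Lysfree cells. The lower Lysfree sum was mostly that of Gars, at 198 FPKM in Differentiated and 150 in Lysfree cells. Kars was at 46.4 and 43.7 FPKM, and its libraries overlapped.

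**Figure D1:**
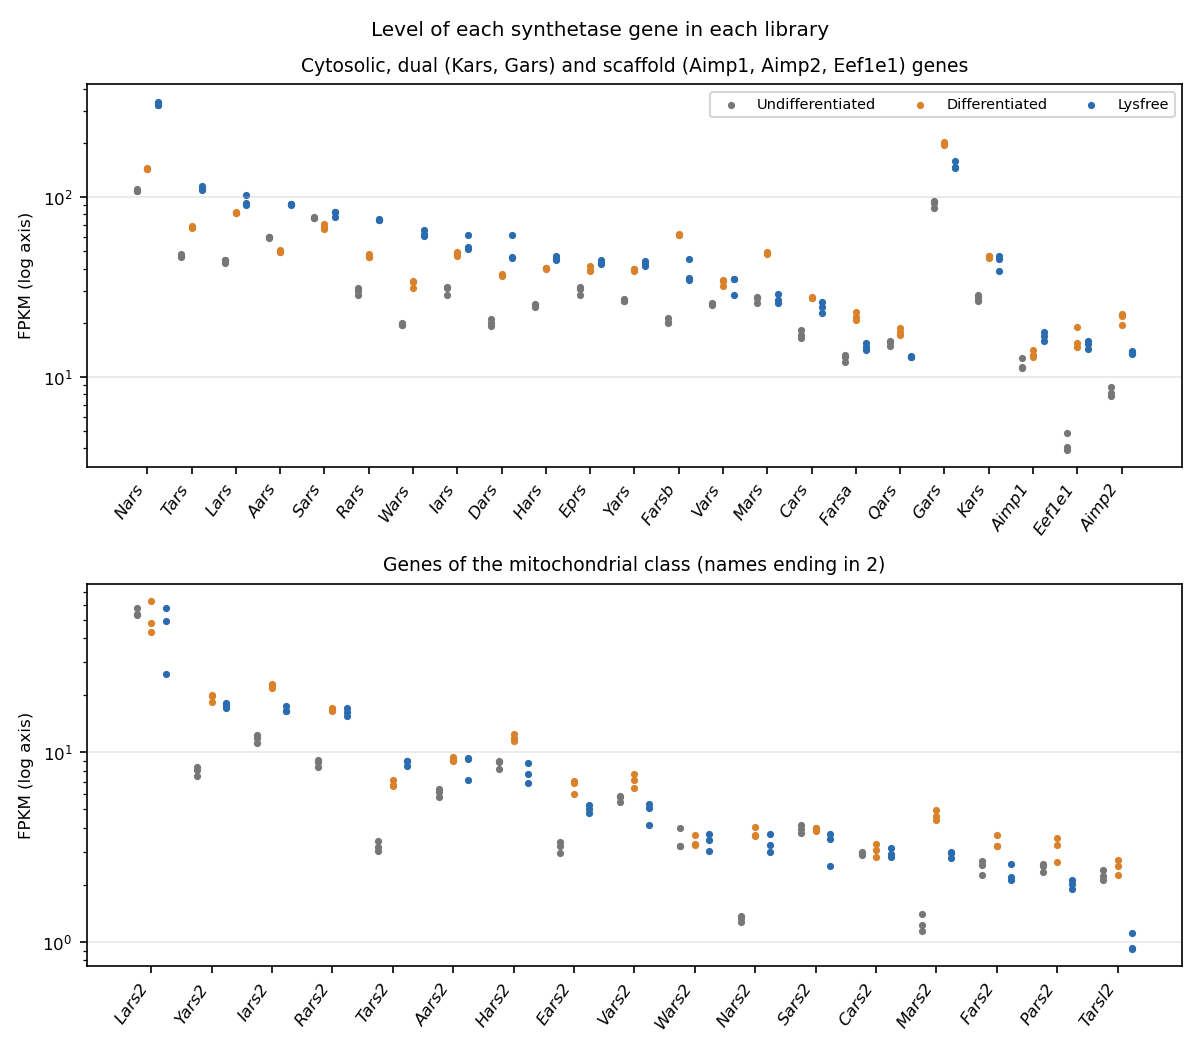
Level in FPKM (log axis) of 40 of the 41 genes, where each point is a library and the colour gives its group; the upper panel holds the cytosolic, dual and scaffold genes and the lower panel the mitochondrial class. Nars is the highest cytosolic gene in every group, at 109, 143 and 328 FPKM on average, and the lowest mean is that of Tarsl2 in Lysfree cells, at 0.986 FPKM.

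Levels per gene length spanned a wide range. Among the cytosolic genes the group means ran from 12.8 (Farsa) to 109 FPKM (Nars) in Undifferentiated, from 17.9 (Qars) to 143 (Nars) in Differentiated and from 12.9 (Qars) to 328 (Nars) in Lysfree cells. The mitochondrial class was lower, with medians over its 18 genes of 3.45, 6.77 and 4.68 FPKM against 26.9, 43.6 and 48.3 for the cytosolic genes. All members were read by at least 109 counts in every library, and all 41 entered each test. Because reads of overlapping genes may be shared, the tests were also counted over the 27 members that overlap no other protein-coding gene: 22 were higher and 2 lower in Differentiated vs. Undifferentiated, 8 and 7 in Lysfree vs. Differentiated, and 19 and 0 in Lysfree vs. Undifferentiated cells, at an adjusted p under 0.05. Among all genes that passed edgeR's expression filter, 37.3% were higher and 37.7% lower in the first of these comparisons, 33.2% and 30.0% in the second and 30.5% and 27.8% in the third, so the second pair of counts lay near the background.

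Several of these genes carry a short element in their promoters that bears on the amino acid response. TGATGNAA, in which N is any base, is the core to which ATF4 binds together with a C/EBP protein. It was searched on both strands (TTNCATCA on the other) in the RefSeq promoter windows of build GRCm38.p6, each 250 bases before to 50 bases after the start of a gene. Windows were given for 30 of the 41 members, and 5 of them (16.7%) held the element, against 1219 of 27025 genes (4.51%). The 5 were Aars, Iars, Tars and Yars among 10 cytosolic genes with a window, and Gars among the 2 dual genes. None of the 15 mitochondrial and 3 scaffold windows held it. The element lay 15 bases before the start in Tars and 30 before it in Gars, while in Yars and Iars it lay at bases 4 and 8 after it. The stretches of these 4 genes are printed on the strand of the gene, with the element in capitals, to show how it sits in each promoter. The stretch of Iars (chr13:49682122-49682151, plus strand) lies in exons that GENCODE M21 marks as untranslated in at least 1 transcript. The stretch of Yars (chr4:129189895-129189924, plus strand) covers 13 untranslated and 17 coding bases of its transcript Yars-201. The stretches of Tars (chr15:11399666-11399908, minus strand) and Gars (chr6:55037751-55038000, plus strand) overlap no annotated gene.
Iars: ctggcactgtcagtaTTGCATCAcctccag
Yars: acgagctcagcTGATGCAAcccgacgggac
Tars: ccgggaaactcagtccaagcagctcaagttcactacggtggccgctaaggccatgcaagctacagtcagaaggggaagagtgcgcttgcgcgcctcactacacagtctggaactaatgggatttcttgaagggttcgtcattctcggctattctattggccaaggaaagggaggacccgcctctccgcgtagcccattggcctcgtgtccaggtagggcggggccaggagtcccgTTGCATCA
Gars: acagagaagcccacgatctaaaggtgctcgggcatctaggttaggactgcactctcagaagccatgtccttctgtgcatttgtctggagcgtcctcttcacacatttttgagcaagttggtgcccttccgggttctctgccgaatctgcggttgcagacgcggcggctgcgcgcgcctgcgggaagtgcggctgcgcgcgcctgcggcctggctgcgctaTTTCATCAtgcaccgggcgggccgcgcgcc

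Differentiated vs. Undifferentiated cells compare the charging enzymes with and without differentiation medium. Most synthetase genes were higher in Differentiated cells in both classes: 33 of 41 were higher and 3 lower at an adjusted p under 0.05 in edgeR's quasi-likelihood test, against 23.0% of the 24402 genes tested higher and 23.2% lower. Over the 13869 genes with enough counts to pass edgeR's expression filter, 37.3% were higher and 37.7% lower. The median log2 fold change of the members was 0.64, against 0.02 over all genes tested. All 18 cytosolic genes were called, 16 of them higher, and of the mitochondrial class 12 were higher, 1 lower and 5 not called (Cars2, Pars2, Sars2, Tarsl2 and Wars2). At 2-fold or more 10 members rose and none fell, against 10.4% of all genes tested rising and 11.4% falling that far. By FPKM, 34 members were higher in every Differentiated library than in any Undifferentiated library and 2 were lower, against 26.2% and 24.7% of all genes tested. These 2-fold and FPKM shares cover all genes with a count above 0, and for calls the shares were larger over filtered genes. In the fit of the filtered genes, 4488 of 13869 were called at 2-fold or more in either direction.

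Phenylalanyl-tRNA synthetase is built from an alpha chain (Farsa) and a beta chain (Farsb), and the beta chain had the largest rise of the cytosolic genes. Farsb was at 19.8, 21.2 and 20.3 FPKM in the Undifferentiated and at 61.2, 61.2 and 62.7 FPKM in the Differentiated libraries. No library of one group reached the other, and the fold change was 2.96 (log2 1.57, SE 0.062, adjusted p = 1.7e-140). Farsa rose 1.68-fold, from 12.1, 13.2 and 12.9 to 21.6, 20.8 and 23.0 FPKM (adjusted p = 4.1e-30). Farsb overlaps the protein-coding gene Sgpp2 on the other strand. The next largest rises of cytosolic genes were those of Lars (leucine, 1.82-fold), Dars (aspartate, 1.82-fold) and Mars (methionine, 1.78-fold). Dars was at 19.2, 19.8 and 21.0 FPKM in Undifferentiated and at 37.0, 37.6 and 36.2 FPKM in Differentiated libraries.

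Against the direction of their class, Aars (alanine) and Sars (serine) fell. Aars was at 59.6, 59.9 and 60.0 FPKM in Undifferentiated libraries and at 49.7, 49.5 and 50.4 FPKM in Differentiated libraries, 1.22-fold lower (log2 -0.29, SE 0.050, adjusted p = 2.4e-08). Sars was at 76.9, 77.2 and 76.1 against 71.0, 68.6 and 66.4 FPKM, 1.14-fold lower (adjusted p = 0.00067), and was not called when all 9 libraries shared a single fit (adjusted p = 0.067). Neither gene's libraries overlapped between the groups. Aars overlaps Exosc6, a protein-coding gene on the same strand.

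The enzymes for both compartments rose as well. Gars, the glycyl-tRNA synthetase, was at 92.6, 94.7 and 87.2 FPKM in Undifferentiated and at 196, 196 and 202 FPKM in Differentiated libraries, 2.13-fold higher (log2 1.09, SE 0.051, adjusted p = 6.5e-100). Kars, which charges lysine, was at 26.4, 28.7 and 27.6 against 46.8, 45.8 and 46.7 FPKM, 1.65-fold higher (log2 0.73, SE 0.056, adjusted p = 8.4e-38). Neither gene's groups overlapped, and by the size of its change Kars stood at place 8 from the top among the 20 cytosolic and dual genes.

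The scaffold proteins Aimp1, Aimp2 and Eef1e1 (also known as AIMP3) join Kars and 7 cytosolic enzymes into the multi-synthetase complex. Eef1e1 had the largest rise of all 41 genes, from 4.08, 4.86 and 3.93 to 14.7, 15.4 and 19.0 FPKM, 3.73-fold (log2 1.90, SE 0.087, adjusted p = 3.8e-103). Aimp2 rose 2.53-fold, from 8.09, 7.83 and 8.83 to 19.5, 21.8 and 22.3 FPKM (adjusted p = 9.8e-45), and overlaps Eif2ak1 on the other strand. Aimp1 moved much less, from 11.2, 12.8 and 11.4 to 13.2, 12.9 and 14.2 FPKM, 1.12-fold (adjusted p = 0.031), and lost the call in 11 alternative fits. The 8 enzymes of the complex (Eprs, Iars, Lars, Mars, Qars, Rars, Dars and Kars) were all called higher, with a median log2 fold change of 0.68, and Eprs, which charges both glutamate and proline, rose 1.29-fold from 31.7, 28.6 and 30.7 to 39.4, 41.5 and 38.6 FPKM (adjusted p = 2.0e-13). The smallest of these 8 changes was that of Qars (glutamine), 1.13-fold, which was not called without Differentiated 1 (adjusted p = 0.081) or when all 9 libraries shared a single fit (adjusted p = 0.11).

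In the mitochondrial class 6 genes rose 2-fold or more, among them Mars2, Nars2, Yars2, Tars2 and Ears2. Mars2, the mitochondrial methionyl enzyme, went from 1.23, 1.14 and 1.40 to 4.42, 4.93 and 4.62 FPKM, 3.66-fold (log2 1.87, SE 0.088, adjusted p = 8.2e-100). Nars2 (asparagine) went from 1.37, 1.33 and 1.28 to 3.60, 3.67 and 4.03 FPKM, 2.77-fold (adjusted p = 2.2e-42). These 2 were the lowest members of the class in Undifferentiated cells and did not overlap between the groups. Yars2 (tyrosine) rose 2.39-fold from 8.32, 7.51 and 8.11 to 18.5, 19.8 and 20.1 FPKM (adjusted p = 2.1e-57). In contrast, Cars2, Sars2 and Wars2 differed by log2 0.03, -0.03 and -0.06, with adjusted p of 0.82, 0.86 and 0.62.

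Lysfree vs. Differentiated cells show the same inducing agents without and with added lysine. Calls ran both ways, and the difference between the classes was not tested. Of the 41 genes 12 were higher and 15 lower in Lysfree cells, against 19.7% of 24130 genes tested higher and 18.8% lower (33.2% and 30.0% of the 13617 that passed the expression filter, near the members' own shares). Of the 18 cytosolic genes 10 were higher, 4 lower and 4 not called, with a median log2 fold change of 0.25. Of the 18 mitochondrial genes 1 was higher, 9 lower and 8 not called, with a median of -0.28, while the median over all genes tested was -0.06. At 2-fold or more 1 member rose (Nars) and 1 fell (Tarsl2), against 8.14% and 10.5% of all genes tested. By FPKM, 14 members lay above and 18 below every Differentiated library in all Lysfree libraries, against 21.3% and 25.3% of all genes tested. Both the 2-fold and the FPKM shares cover all genes with a count above 0, so they may be low as a background for well-read members. In the fit of the filtered genes, 3818 of 13617 were called at 2-fold or more in either direction.

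Without Lysfree 1, 16 members were higher and 16 lower. The added calls were Eprs (log2 0.15, adjusted p = 4.6e-05), Yars (0.14, adjusted p = 0.0034) and Vars (0.11, adjusted p = 0.035), all higher, and Nars2, lower (-0.23, adjusted p = 0.027). The cytosolic and mitochondrial medians were then 0.18 and -0.28. Lars2 turned from -0.15 to 0.10 (adjusted p = 0.014). Leaving out another library took away the calls of Hars, Iars, Lars, Ears2, Fars2 or Pars2, whose log2 fold changes lay between -0.58 and 0.28, and at fewest 22 members were called. Hars was lost without any 1 of Differentiated 1, 2 and 3 or Lysfree 2 and 3, and Iars without any 1 of the Differentiated libraries. Lars fell out without Differentiated 1 (adjusted p = 0.059), Pars2 without Differentiated 1 (adjusted p = 0.068), Fars2 without Differentiated 3 (adjusted p = 0.051), and Ears2 without Differentiated 1, Differentiated 2 or Lysfree 2 (adjusted p = 0.11, 0.12 and 0.053).

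**Figure D2:**
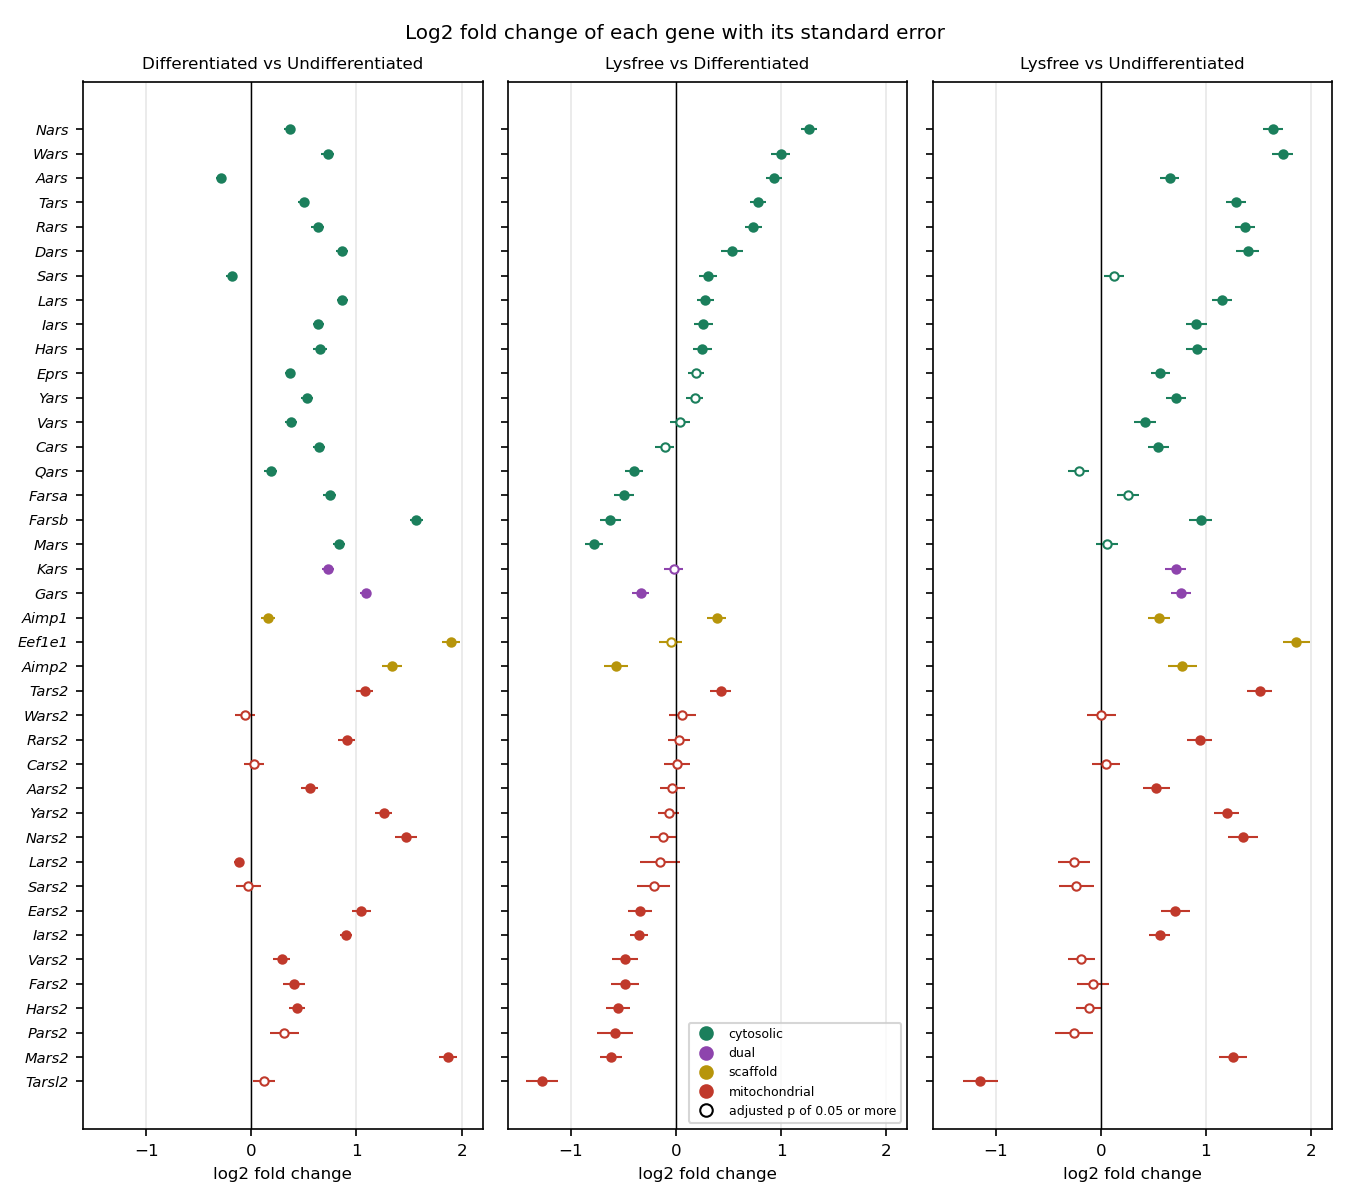
Fitted log2 fold change of 40 of the 41 genes in the 3 comparisons, with bars for the standard error; filled points have an adjusted p under 0.05 in edgeR's quasi-likelihood test, open points do not, and the colour gives the class. In Lysfree vs. Differentiated cells 10 plotted cytosolic genes and 1 mitochondrial gene are higher, and 4 cytosolic and 8 mitochondrial genes are lower.

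Nars, which charges asparagine, rose most in Lysfree cells. It was at 142, 145 and 143 FPKM in the Differentiated and at 338, 324 and 324 FPKM in the Lysfree libraries, 2.40-fold higher (log2 1.26, SE 0.077, adjusted p = 2.0e-11). Asparagine is also the product of Asns, a classical ATF4 target. Asns itself was at 172 ± 1.08 FPKM in Differentiated and 163 ± 25.1 FPKM in Lysfree cells (adjusted p = 0.97). Wars (tryptophan) went from 31.1, 33.8 and 34.1 to 65.5, 60.8 and 62.5 FPKM, 1.99-fold (adjusted p = 5.8e-09), and Tars (threonine) from 67.4, 67.8 and 68.8 to 115, 111 and 110 FPKM, 1.72-fold (adjusted p = 3.7e-08). All 3 genes were higher in every Lysfree library than in any Differentiated library.

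Aars, which was lower in Differentiated than in Undifferentiated cells, was highest in Lysfree cells. It stood at 91.2, 90.7 and 92.0 FPKM there, 1.91-fold above the Differentiated libraries (log2 0.94, SE 0.076, adjusted p = 1.7e-09). Sars followed the same order at a smaller size, with 77.8, 82.8 and 82.6 FPKM, 1.23-fold above Differentiated cells (adjusted p = 0.0046). These 2 were the only members whose mean was lowest in Differentiated and highest in Lysfree cells. Rars (arginine, 1.66-fold) and Dars (1.44-fold) also rose, Dars with 61.2 FPKM in Lysfree 1 against 45.6 and 46.3 in the others.

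The 4 cytosolic genes that fell were Mars, Farsb, Farsa and Qars. Mars was at 49.0, 48.3 and 49.7 FPKM in Differentiated and at 29.1, 25.9 and 26.8 FPKM in Lysfree libraries, 1.72-fold lower (log2 -0.78, SE 0.088, adjusted p = 2.3e-07). Mars overlaps Ddit3 (CHOP, a stress-induced transcription factor) on the other strand, and Ddit3 moved the opposite way, from 55.8 ± 4.01 to 96.2 ± 21.9 FPKM (log2 0.85, adjusted p = 1.4e-05). Both chains of the phenylalanyl enzyme fell together: Farsb went to 45.0, 34.5 and 35.3 FPKM, 1.54-fold lower (adjusted p = 2.7e-05), and Farsa to 14.1, 14.7 and 15.5 FPKM, 1.41-fold lower (adjusted p = 0.00019). Qars was at 18.7, 17.8 and 17.1 FPKM in Differentiated and at 12.9, 12.9 and 13.1 FPKM in Lysfree libraries, 1.32-fold lower (adjusted p = 0.00099). No library of these 4 genes overlapped between the groups.

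Kars, the enzyme for the amino acid left out, was not called. Its Lysfree libraries stood at 39.0, 45.1 and 47.0 FPKM and its Differentiated libraries at 46.8, 45.8 and 46.7, so the groups overlapped. The log2 fold change was -0.02 (SE 0.091, adjusted p = 0.86), place 14 among the 20 cytosolic and dual genes, and Kars was called in none of the alternative fits. Gars fell 1.26-fold, to 159, 147 and 145 FPKM (log2 -0.34, SE 0.079, adjusted p = 0.0014). Of the scaffold genes, Aimp1 rose 1.31-fold to 17.7, 16.8 and 15.8 FPKM (adjusted p = 0.0021), Aimp2 fell 1.48-fold to 13.4, 13.6 and 14.0 FPKM (adjusted p = 0.00033), and Eef1e1, at 14.2, 15.8 and 15.2 FPKM, was not called (log2 -0.05, adjusted p = 0.74). Of the 8 enzymes of the complex 4 were higher, 2 lower and 2 (Eprs and Kars) not called, with a median log2 of 0.23, and the 12 cytosolic and dual enzymes outside it had a median of 0.21. Eprs was at 44.9, 42.5 and 43.1 FPKM, above each Differentiated library (log2 0.19, adjusted p = 0.055).

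In the mitochondrial class, Tarsl2 fell furthest. Its level was 2.51, 2.72 and 2.25 FPKM in Differentiated and 0.920, 1.11 and 0.925 FPKM in Lysfree libraries, 2.42-fold lower (log2 -1.27, SE 0.153, adjusted p = 5.7e-07). Tarsl2 overlaps Tm2d3 on the same strand. Without it, 1 of 17 genes was higher and 8 were lower, with a median log2 of -0.21. Mars2 fell 1.54-fold to 2.96, 2.98 and 2.76 FPKM (log2 -0.62, SE 0.105, adjusted p = 5.3e-05). Mars2 had the largest rise of the class in Differentiated vs. Undifferentiated cells, and in Lysfree cells it was called above its Undifferentiated level. Pars2 (proline) fell 1.49-fold, to 2.12, 2.02 and 1.90 FPKM from 3.55, 3.23 and 2.64 (adjusted p = 0.0083).

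Tars2 was the exception. It was at 7.17, 6.75 and 6.68 FPKM in Differentiated and at 8.45, 8.97 and 9.02 FPKM in Lysfree libraries, 1.34-fold higher (log2 0.42, SE 0.099, adjusted p = 0.0014). Its cytosolic partner Tars was among the 4 largest rises, so both enzymes for threonine were higher, while the third threonyl gene, Tarsl2, was lower.

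For 16 amino acids a cytosolic and a mitochondrial enzyme were set side by side, with Eprs standing for both glutamate and proline. The cytosolic gene had the higher FPKM in every library for 15 of the 16, the leucine pair being the exception. In Differentiated vs. Undifferentiated cells the cytosolic gene had the more positive change in 7 pairs, and in Lysfree vs. Differentiated cells in 13. These 2 comparisons share the Differentiated libraries. The log2 ratio of cytosolic to mitochondrial FPKM was higher in every Lysfree than in every Differentiated library for 12 pairs, lower for 0 and overlapping for 4 (cysteine, phenylalanine, leucine and methionine). Counted the same way, Differentiated vs. Undifferentiated cells had 5 pairs higher, 9 lower and 2 overlapping. Lysfree vs. Undifferentiated cells had 10 higher, 3 lower and 3 overlapping. No such counts were made for pairs of other genes, so these have no background. The asparagine pair was 82.0-fold apart in Undifferentiated, 38.1-fold in Differentiated and 99.6-fold in Lysfree cells.

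**Figure D3:**
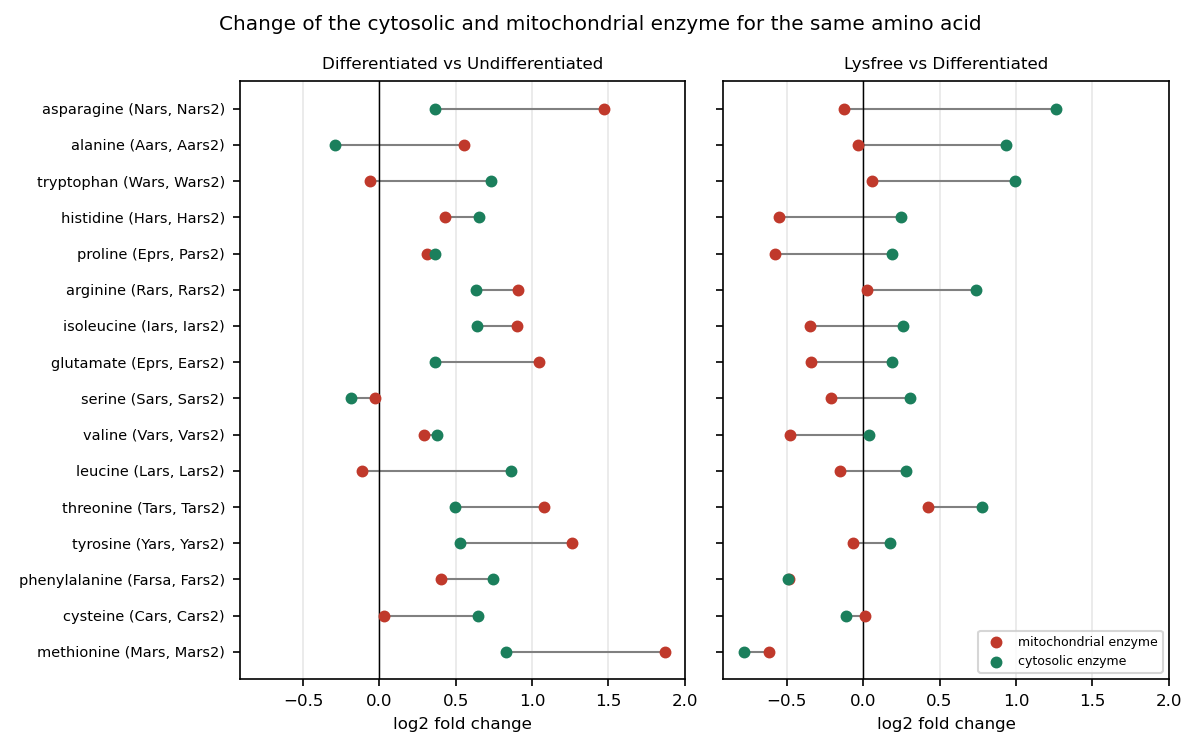
Log2 fold change of the cytosolic and of the mitochondrial enzyme for the same amino acid, joined by a line, for 16 amino acids in 2 comparisons that share the Differentiated libraries. In Lysfree vs. Differentiated cells the cytosolic point lies to the right in 13 pairs, and in Differentiated vs. Undifferentiated cells in 7.

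Lysfree vs. Undifferentiated cells compare the induced cells without added lysine with the starting cells. Of the members 28 were higher and 1 lower (Tarsl2), against 18.0% of 23994 genes tested higher and 17.1% lower (30.5% and 27.8% of the 13648 that passed the filter). The median log2 fold change was 0.66, against -0.02 over all genes tested. At 2-fold or more 11 members rose, against 5.52% of all genes tested, and 1 fell, against 8.76%. By FPKM, 30 members lay above and 5 below every Undifferentiated library in all Lysfree libraries, against 20.2% and 23.2% of all genes tested. Again the 2-fold and FPKM shares cover all genes with a count above 0. In the fit of the filtered genes, 2927 of 13648 were called at 2-fold or more in either direction. Cytosolic genes had 14 higher, 0 lower and 4 not called (Farsa, Mars, Qars and Sars), with a median of 0.81, and mitochondrial genes 9 higher, 1 lower and 8 not called, with a median of 0.24. Without Lysfree 1, 30 members were higher and 3 lower, the added calls being Farsa (log2 0.26, adjusted p = 0.0015) and Sars (0.13, adjusted p = 0.048), higher, and Qars (-0.23, adjusted p = 0.0025) and Hars2 (-0.23, adjusted p = 0.034), lower. This comparison shares libraries with both of the others.

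The cytosolic genes furthest above the starting cells were Wars (3.32-fold, log2 1.73, SE 0.10, adjusted p = 1.0e-15), Nars (3.11-fold, adjusted p = 7.9e-16), Dars (2.64-fold, adjusted p = 1.8e-12) and Rars (2.59-fold, adjusted p = 2.0e-13). Wars was at 19.3, 19.4 and 20.1 FPKM in Undifferentiated and at 65.5, 60.8 and 62.5 FPKM in Lysfree libraries. Mars overlapped between these groups, at 27.4, 27.7 and 25.8 FPKM in Undifferentiated and 29.1, 25.9 and 26.8 FPKM in Lysfree libraries (log2 0.06, SE 0.101, adjusted p = 0.67). Qars had a log2 of -0.21 (adjusted p = 0.11) and was called lower in 7 alternative fits, and Farsa had 0.26 (adjusted p = 0.056) and was called higher in 6. Of the mitochondrial genes Tars2 (2.85-fold, adjusted p = 1.3e-12), Nars2 (2.56-fold, adjusted p = 2.6e-09), Mars2 (2.39-fold, adjusted p = 1.8e-09) and Yars2 (2.29-fold, adjusted p = 2.4e-10) were furthest up. Tarsl2 was 2.21-fold lower than in Undifferentiated libraries, which stood at 2.23, 2.40 and 2.12 FPKM (log2 -1.14, adjusted p = 6.2e-07). Kars was 1.64-fold and Gars 1.69-fold higher, and of the scaffold genes Eef1e1 was 3.63-fold, Aimp2 1.71-fold and Aimp1 1.47-fold higher (adjusted p = 1.1e-13, 2.0e-05 and 4.3e-05).

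Read across the 3 groups, the means rose from Undifferentiated to Differentiated to Lysfree cells for 12 members, of which 10 were cytosolic (Dars, Eprs, Hars, Iars, Lars, Nars, Rars, Tars, Wars and Yars), with Tars2 and Aimp1. For 18 members the Differentiated mean was highest and the Undifferentiated mean lowest, and 9 of these were mitochondrial. For 7 members Lysfree cells had the lowest and Differentiated cells the highest mean: 6 mitochondrial genes (Fars2, Hars2, Pars2, Sars2, Tarsl2 and Vars2) and Qars. These orders of means need no call and were not counted over all genes. In Lysfree vs. Differentiated cells Eprs and Yars of the 12 were not called. Of the 18, Cars, Vars, Kars, Eef1e1, Aars2, Cars2, Nars2, Rars2 and Yars2 were not called there. Cars2 was at 2.943 FPKM in Undifferentiated and 2.948 in Lysfree cells, and Sars2 at 3.930 in Undifferentiated and 3.932 in Differentiated cells. Cars2, Sars2 and Wars2 were not called in any of the 3 comparisons. Hars and Hars2 overlap each other head to head on opposite strands. In Lysfree vs. Differentiated cells Hars was at log2 0.25 and Hars2 at -0.55, and sharing of reads between them was not tested.

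Lars2, the mitochondrial leucyl enzyme, had a level unlike that of its class. It was at 53.6, 57.6 and 52.7 FPKM in Undifferentiated, 43.2, 62.7 and 48.1 FPKM in Differentiated and 25.8, 57.3 and 49.4 FPKM in Lysfree libraries, where the next highest mitochondrial gene had a mean of 11.8, 22.5 and 17.7 FPKM. The 3 groups overlapped. The lower value in Differentiated cells (log2 -0.12, adjusted p = 0.039) was not called in 10 alternative fits, among them DESeq2 (adjusted p = 0.57) and the fit without Differentiated 1 (log2 -0.01, adjusted p = 0.94). In Lysfree vs. Differentiated cells it was -0.15 (SE 0.188, adjusted p = 0.54), and it was called lower without Lysfree 2 (-0.39, adjusted p = 0.023). Gm23935, a 57-base gene on chromosome 16 annotated as a miRNA and chosen here after its values were seen, moved with it from library to library: it held 0.0154% of the counts of Lysfree 1 against 0.191% and 0.149% in Lysfree 2 and 3, and 0.118% to 0.162% in the other libraries. The part of such library differences in the value of Lars2 was not tested.

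**Figure D4:**
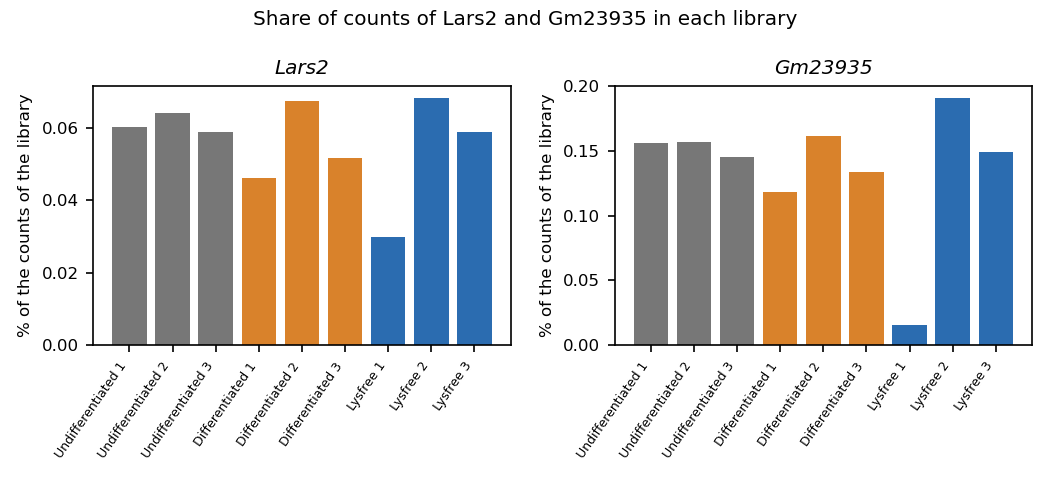
Share of the counts of each library (% of its total, bars from 0) taken by Lars2 and by Gm23935, coloured by group. Lysfree 1 is the lowest library for both genes, at 0.0300% and 0.0154%.

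Other genes of charging and elongation were counted from lists. As a background for each list, 37.3% of genes that passed the expression filter were higher and 37.7% lower in Differentiated vs. Undifferentiated cells. The shares were 33.2% and 30.0% in Lysfree vs. Differentiated cells and 30.5% and 27.8% in Lysfree vs. Undifferentiated cells. Of 14 accessory and proofreading genes, 8 were higher and 1 (Dtd1) lower in Differentiated vs. Undifferentiated cells, and 3 were higher and 3 lower in Lysfree vs. Differentiated cells, with medians of log2 0.45 and -0.18. Trnt1, which adds the CCA end that every tRNA needs before charging, was lowest in Undifferentiated and highest in Lysfree cells. It stood at 12.7 ± 0.599, 21.1 ± 0.383 and 26.9 ± 4.80 FPKM in Undifferentiated, Differentiated and Lysfree cells. By edgeR's test the adjusted p was 3.8e-26 in Differentiated vs. Undifferentiated and 0.0036 in Lysfree vs. Differentiated cells. Gatc, a subunit of the mitochondrial amidotransferase that completes glutaminyl-tRNA, had the same order of groups (12.3 ± 0.853, 20.5 ± 1.53 and 25.3 ± 0.521 FPKM). Its partner Gatb was highest in Differentiated cells (3.45 ± 0.214, 4.74 ± 0.179 and 3.55 ± 0.521 FPKM). In Lysfree vs. Undifferentiated cells 7 of these genes were higher and 2 lower.

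All 4 mitochondrial factors (Tufm, Tsfm, Gfm1 and Gfm2) were higher in Differentiated than in Undifferentiated cells, with a median log2 of 1.57. All 4 were lower in Lysfree than in Differentiated cells, with a median of -1.0. Tufm, which delivers charged tRNA to the mitochondrial ribosome, was at 38.6 ± 0.666, 105 ± 4.36 and 34.8 ± 5.46 FPKM, and in Lysfree vs. Undifferentiated cells it was not called (adjusted p = 0.53) while the other 3 were higher. Of 6 cytosolic factors 2 were higher and 3 lower in Differentiated cells, 0 higher and 5 lower in Lysfree vs. Differentiated cells, and 2 higher and 4 lower in Lysfree vs. Undifferentiated cells. Eef2, which moves the ribosome along the message, was highest in Undifferentiated and lowest in Lysfree cells. It stood at 1092 ± 26.0, 818 ± 1.80 and 496 ± 4.12 FPKM in Undifferentiated, Differentiated and Lysfree cells. By edgeR's test the adjusted p was 3.7e-26 in Differentiated vs. Undifferentiated and 6.2e-08 in Lysfree vs. Differentiated cells. Cytosolic synthetases and cytosolic elongation factors had median log2 changes of opposite sign in Lysfree vs. Differentiated cells, 0.25 and -0.22.

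The list of 22 genes of the GCN2 and ATF4 response had 16 higher and 5 lower in Differentiated vs. Undifferentiated cells, 9 higher and 7 lower in Lysfree vs. Differentiated cells, and 16 higher and 3 lower in Lysfree vs. Undifferentiated cells, with median log2 changes of 0.81, 0.01 and 1.24. Among genes that passed the expression filter, 37.3% were higher and 37.7% lower in the first comparison. The shares were 33.2% and 30.0% in the second, near the list's own, and 30.5% and 27.8% in the third. Some targets followed the order of Nars and Wars: Slc7a5, the light chain of a transporter of large neutral amino acids, was at 43.1 ± 1.70, 77.0 ± 2.64 and 158 ± 20.9 FPKM, and Chac1, a glutathione-degrading enzyme, at 20.6 ± 0.123, 59.4 ± 1.65 and 90.4 ± 18.6 FPKM. Others were lower in Lysfree than in Differentiated cells. Psat1 of serine synthesis was at 144 ± 21.1 against 194 ± 6.03 FPKM (adjusted p = 0.0022 in edgeR's test). The secreted factor Fgf21 was at 2.94 ± 0.379 against 20.4 ± 2.51 FPKM (adjusted p = 2.9e-11). Atf4 itself was at 237 ± 10.6, 307 ± 8.74 and 221 ± 40.6 FPKM. By edgeR's test it was higher in Differentiated vs. Undifferentiated (adjusted p = 3.0e-12) and lower in Lysfree vs. Differentiated cells (adjusted p = 0.0037). In Lysfree vs. Undifferentiated cells it was not called (adjusted p = 0.75). In Lysfree 1, 2 and 3 Atf4 was at 174, 244 and 244 FPKM, Slc7a5 at 182, 148 and 144, and Chac1 at 68.9, 101 and 101. Of the 19 listed genes with a promoter window 7 held TGATGNAA (36.8%). Among the synthetases that hold it, Aars and Tars were 2 of the 4 largest rises of Lysfree vs. Differentiated cells and Iars rose (log2 0.26, adjusted p = 0.022), Yars had a log2 of 0.18 (adjusted p = 0.099) and Gars fell, while no window was given for Nars and Wars. Members whose window lacked it went both ways, such as Dars (log2 0.53) and Sars (0.30) up, and Farsb (-0.63) and Farsa (-0.49) down. Whether the element goes with the change was not tested.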

How the data were processed

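Poly A RNA of 9 libraries of 3T3-L1 cells was analysed in 3 groups of 3, taken from the sample labels. The authors deposited read counts per gene, not normalized, and FPKM for the same genes. The deposited FPKM were counts over gene length and library total times a constant for each library, 0.988 to 0.994 in Undifferentiated, 1.03 to 1.04 in Differentiated and 0.932 to 0.953 in Lysfree libraries, and how the authors set it is not given in the sources used here; FPKM of Lysfree cells are thus lower against Differentiated cells than library totals alone would give. HISAT2 2.0.5, featureCounts 1.5.0-p3 and mm10 are named in the submitters' processing notes. The strand setting and annotation release are not given in the sources used here, so reads of overlapping genes may be shared; 14 of the 41 members overlap another protein-coding gene. Every column matched 1 sample, and 0 columns were left unmapped.

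For each pair of groups, edgeR's quasi-likelihood test was run on the counts of genes above 0 in at least 1 of the 6 libraries (edgeR 4.0.16, R 4.3.3; TMM, glmQLFit and glmQLFTest), with Benjamini-Hochberg adjustment over all genes tested and a call at an adjusted p under 0.05. Standard errors of this test need not follow a gene's own replicates. In Differentiated vs. Undifferentiated cells Lars2, at 43.2, 62.7 and 48.1 FPKM in Differentiated libraries, had an SE of 0.049. Eprs, at 39.4, 41.5 and 38.6 FPKM there, also had 0.049, so small p-values need not measure each gene's own spread. Group means are deposited FPKM with SD. An exact permutation test of 3 against 3 libraries cannot go below p = 0.1, so no p was computed for single values. Code was checked on simulated counts. Alternatives were DESeq2 1.42.0, limma 3.58.1 on log2(FPKM + 1) and log2(FPKM + 0.1), other scalings and filters, a single fit of 9 libraries, a replicate block and leaving out each library.

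The members, lists, classes and tests were chosen with earlier results of these data known. Genes named in each comparison were Kars, Gars, Eprs, Farsa, Farsb, the scaffold genes, the 4 largest called changes of the cytosolic and of the mitochondrial class, called members that moved against their class median, and partner enzymes; others were named where a count was 5 or fewer, or after their values were seen. Promoter sequences are from RefSeq (GRCm38.p6), matched by symbol for 30 members. The values of 1 member and 1 promoter stretch are not reported here, and that member is left out of the plots and of the pairs of enzymes.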

Additional observations from a re-analysis of the deposited data

How the results depend on the processing

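Of the gene-level results of the 41 members in 3 comparisons, 1771 kept their direction and their side of the threshold over all alternatives, 46 lost a call, 27 gained one and 1 reversed: Lars2 in Lysfree vs. Differentiated cells, at log2 0.10 without Lysfree 1 and -0.39 without Lysfree 2. The cause was not tested. In Differentiated vs. Undifferentiated cells 1 member was called lower with all 9 libraries in a single fit, against 3. In Lysfree vs. Differentiated cells 4 members were at 2-fold or more with library size alone and 1 with limma on log2(FPKM + 1), against 2. The median of Kars and Gars there was -0.11 with library size alone, -0.23 with at least 10 counts in every library, -0.24 with log2(FPKM + 1) and -0.25 with log2(FPKM + 0.1), against -0.18; in Lysfree vs. Undifferentiated cells it was 0.676 with at least 10 counts and 0.675 with log2(FPKM + 1), against 0.74. Members called lower in Lysfree vs. Undifferentiated cells numbered 2 with DESeq2, the expression filter, at least 10 counts, the replicate block and both limma fits, and 3 with all 9 libraries, against 1. The mitochondrial median in that comparison was 0.16 with log2(FPKM + 1) and 0.44 with Tarsl2 moved to the cytosolic class, against 0.24.

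Leaving out each library gave 1 to 3 members called lower in Lysfree vs. Undifferentiated cells (3 without Lysfree 1, 2 without Lysfree 2 or Lysfree 3), and 22 to 32 called in Lysfree vs. Differentiated, 33 to 36 in Differentiated vs. Undifferentiated and 28 to 33 in Lysfree vs. Undifferentiated cells. Correlations of deviations over 14265 genes were -0.085 to 0.116 for samples of the same number and -0.157 to 0.106 for different numbers. Deviations from a mean of 3 libraries cannot settle whether the numbers pair the samples. With the replicate block 35, 26 and 30 members were called, against 36, 27 and 29. Scaling by library size alone moved the median of expressed genes by at most 0.07. With 3 libraries a group, the calls lost by leaving out a library in Lysfree vs. Differentiated cells were of members with log2 fold changes between -0.58 and 0.28.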
